A study of Mus musculus with 22 samples.

Results

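Among 8 T-cell lymphomas of Atm-deficient mice, 5 carried an extra copy signal over the distal end of chromosome 1 and 3 did not, and the rest of their genomes was compared between these sides. The sides were chosen by the measured values of the same arrays. A lymphoma array was placed on the gain side where the median log2 ratio of the 918 probes in the 8 Mb of chromosome 1 that end at 180 Mb was 0.25 or more, which took lymphoma mice 3, 4, 5, 6 and 8. Lymphoma mice 1, 2 and 7 formed the other side. The 8 lymphomas belong to a series of 22 arrays, and the other 14 arrays hold thymocyte DNA of Atm-deficient mice in which no tumour was seen by eye. Values on chromosome 1, which holds that window, are given here as description, and nothing is concluded from tests on them.

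All 22 mice were Atm-deficient and untreated, and every array set Cy5-labelled thymocyte DNA of 1 such mouse against Cy3-labelled thymocyte DNA of wildtype mice. Strain, age, sex, the altered part of Atm and the number of wildtype animals behind the reference are not in the labels. Each value is a log2 ratio, Atm-deficient DNA divided by wildtype DNA, centred on the autosomal median of its array. An extra copy in every cell (3 copies over 2) would give 0.58 and the loss of 1 copy in every cell -1. A change carried by part of the cells gives a smaller value, so its copy number and the share of cells that carry it cannot be told apart.

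Atm is the kinase that responds to DNA double-strand breaks, among them the breaks that the recombinase makes when thymocytes assemble their T-cell receptor genes. Mice without Atm develop thymic lymphomas in which chromosome ends are often rejoined wrongly near such loci, foremost the Tcra/Tcrd locus on chromosome 14 and, on chromosome 12, the Igh locus. Bcl11b, a transcription factor required for T-cell identity, lies proximal to Igh, and Notch1, on chromosome 2, encodes the receptor that drives T-lineage commitment and is activated in many T-cell tumours. Distal chromosome 1 holds Ncstn, a subunit of gamma-secretase, the protease that releases active Notch.

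The probes below, 60 bases each, mark the places where the sides are read: the gained end of chromosome 1, proximal chromosome 2, the end of chromosome 12 and distal chromosome 14. They are printed as the array files give them, and neither their strand nor the genome build of the positions is given in the sources used here.
Ncstn, chr1:172046186-172046245: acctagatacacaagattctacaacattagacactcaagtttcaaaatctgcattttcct
Gata3, chr2:9806104-9806163: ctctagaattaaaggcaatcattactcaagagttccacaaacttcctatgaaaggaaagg
Akt1, chr12:110187618-110187677: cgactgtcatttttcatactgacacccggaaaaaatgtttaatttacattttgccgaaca
Klhl1, chr14:90661545-90661604: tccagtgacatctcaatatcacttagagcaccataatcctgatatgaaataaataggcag

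On the gain side the Ncstn probe read 0.51, 0.58, 0.47, 0.53 and 0.66 in lymphoma mice 3, 4, 5, 6 and 8. It read -0.07, -0.04 and 0.00 in lymphoma mice 1, 2 and 7. The Akt1 probe was lowest on the gain side, at -1.24, -1.01, -0.89, -0.95 and -0.72, against 0.44, -0.68 and 1.25 on the other side. Lymphoma mouse 2 thus sat with the gain side at Akt1. The Klhl1 probe split the gain side itself, with -1.32, -1.21 and -1.15 in lymphoma mice 3, 5 and 6 but -0.34 in mouse 4 and -0.09 in mouse 8, while mice 1, 2 and 7 read -0.20, -0.16 and 0.29. Single probes are noisy. The Gata3 probe read 0.73 and 1.03 in mice 1 and 2, where the whole surrounding block was gained, but also 0.81 and 0.62 in mice 3 and 4, where it was not.

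The 5 chromosome 1 gains lay close together in height and differed in length. Window medians were 0.55, 0.49, 0.50, 0.52 and 0.46 in lymphoma mice 3, 4, 5, 6 and 8 (mean 0.51 ± 0.03, SD, n = 5), and -0.04, -0.03 and -0.01 in mice 1, 2 and 7 (mean -0.03 ± 0.02, SD, n = 3). Mouse 8 was the member just inside the threshold and mouse 7 the array just outside it, and thresholds of 0.15 and 0.35 gave the same sides. The gain covered 38.2 Mb in mouse 3, 14.1 Mb in mouse 4, 63.1 Mb in mouse 5, 30.9 Mb in mouse 6 and 55.98 Mb in mouse 8. In mice 3, 5 and 6 it ran to the last probe of the chromosome, whereas in mice 4 and 8 it ended earlier. The stretch gained in all 5 was chr1:168877001-180987924, 12.1 Mb with 197 named genes.

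That common stretch holds 3 genes of the lists used here. Ncstn averaged 0.55, 0.77, 0.50, 0.52 and 0.59 over its 4 probes in mice 3, 4, 5, 6 and 8 and 0.06, 0.07 and 0.13 in mice 1, 2 and 7. Parp1, which binds DNA breaks, read 0.39 to 0.78 on the gain side and 0.19 to 0.25 on the other. Psen2, a catalytic subunit of gamma-secretase, read 0.35, 0.82, 0.54 and 0.38 in mice 3 to 6 but 0.11 in mouse 8, inside the range of the other side (-0.03 to 0.23), from 3 probes. Of 915 chromosome 1 genes with at least 3 probes, limma's adjusted p was under 0.05 for 50 (5.46%), all between 169474765 and 178913566. The rule used that contrast, and nothing is read from the count.

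**Figure D1:**
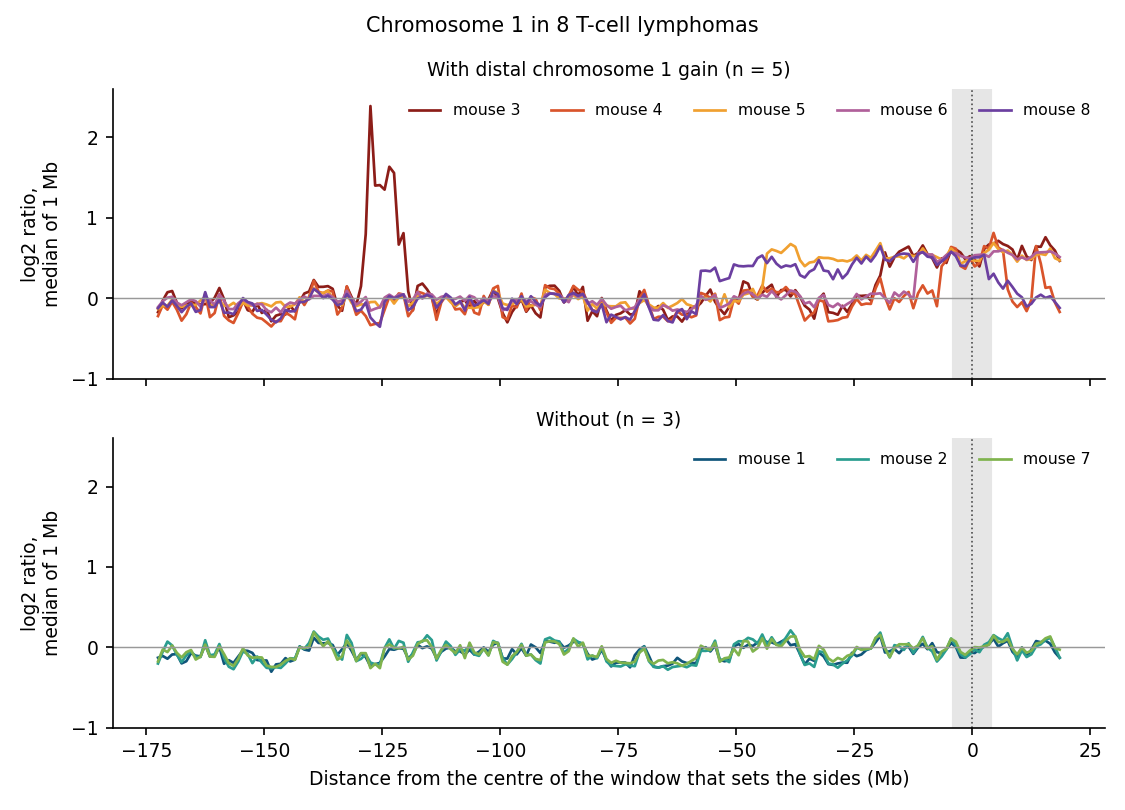
Log2 ratio along chromosome 1 (y axis, median of 1 Mb) against the distance in Mb from the centre of the window that set the sides (x axis, window shaded), for the 5 lymphomas with the gain (top) and the 3 without (bottom). Lines are mice. Across the window the 5 lie between 0.46 and 0.55 and the 3 between -0.04 and -0.01. The gains begin at different distances from the window.

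The arrays themselves set limits on what could be seen. Noise, the spread between neighbouring probes, ran from 0.15 to 0.37 in the lymphomas, with mouse 3 the noisiest. Lymphoma mice 1, 3 and 4 were scanned in batch 1, mice 2 and 5 in batch 3 and mice 6 and 7 in batch 6, so both sides met in these 3 batches, and mouse 8 was the only lymphoma in batch 5. Over autosomal probes the 28 pairs of lymphomas correlated with a median r of 0.39 and a lowest r of -0.00. Between lymphoma mouse 3 and no-lymphoma mice 3, 4 and 9, r was -0.44, -0.48 and -0.41. These no-lymphoma arrays were noisier than any lymphoma, at 0.55, 0.49 and 0.51. The labels state the dyes, and the direction was kept. The receptor loci had no uniform sign. Because the reference was thymocyte DNA too, they could not show whether the lymphoma DNA was of T cells. Tcrb was below 0 in 5 of 8 lymphomas (-0.75 to 0.72), Tcra/Tcrd in 2 (-0.42 to 2.75) and Tcrg in 4 (-0.26 to 0.16). The immunoglobulin loci Igh and Igk were below 0 in all 8, at -0.94 to -0.33 and -0.20 to -0.06. Igh adjoins the chromosome 12 end that was called lost in all 8. An Atm probe at chr9:53461029-53461088 read 0.95 to 1.31 on the gain side and 1.03 to 1.32 on the other, while the mean of the other 11 Atm probes read 0.06 to 0.25 and 0.03 to 0.09. Since the altered part of Atm is not stated, this checks no label.

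The amount of altered DNA outside chromosome 1 overlapped between the sides. Called segments (mean at or beyond 0.25 in size) covered 232, 378, 227, 231 and 174 Mb in lymphoma mice 3, 4, 5, 6 and 8, and 196, 294 and 143 Mb in mice 1, 2 and 7. The ranges overlapped, and only mouse 4 exceeded mouse 2. The means were 249 ± 76.2 Mb (SD, n = 5) and 211 ± 76.6 Mb (SD, n = 3), a difference of 37.4 Mb with an exact two-sided permutation p of 0.554. Within the scan batches that held both sides it was 109, -66.7 and 87.9 Mb, so its sign was not the same in each. With 5 against 3 arrays there are 56 splits, and the smallest p they can give is 0.0179.

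Split by direction, losses and gains leaned opposite ways without passing the test. Lost DNA amounted to 109, 221, 88.2, 90.8 and 47.3 Mb on the gain side and to 12.1, 58.4 and 32.5 Mb on the other. Of the 5 gain-side lymphomas, 4 had more lost DNA than any of mice 1, 2 and 7, and mouse 8 lay below mouse 2. The difference was 76.8 Mb (111 ± 65.2 against 34.3 ± 23.2, SD, n = 5 and 3; exact permutation p = 0.0893), and it was 153, 29.8 and 58.3 Mb within the batches. With segments called from 0.15 on, the difference turned to -67.2 Mb, and with calls from 0.40 on it was 43.3 Mb. Without lymphoma mouse 4 it was 48.1 Mb.

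Gained DNA was 124, 157, 139, 141 and 126 Mb on the gain side and 184, 236 and 111 Mb on the other, with mouse 7 lowest of all 8. The difference was -39.4 Mb (137 ± 13.3 against 177 ± 62.7, SD, n = 5 and 3; exact permutation p = 0.232). The number of called segments was 34, 100, 100, 83 and 47 against 49, 126 and 55. These counts overlapped widely (difference -3.87 segments, exact permutation p = 0.929). For scale, the 14 no-lymphoma arrays had 0.0954 to 294 Mb altered, with a median of 25.2 Mb.

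**Figure D2:**
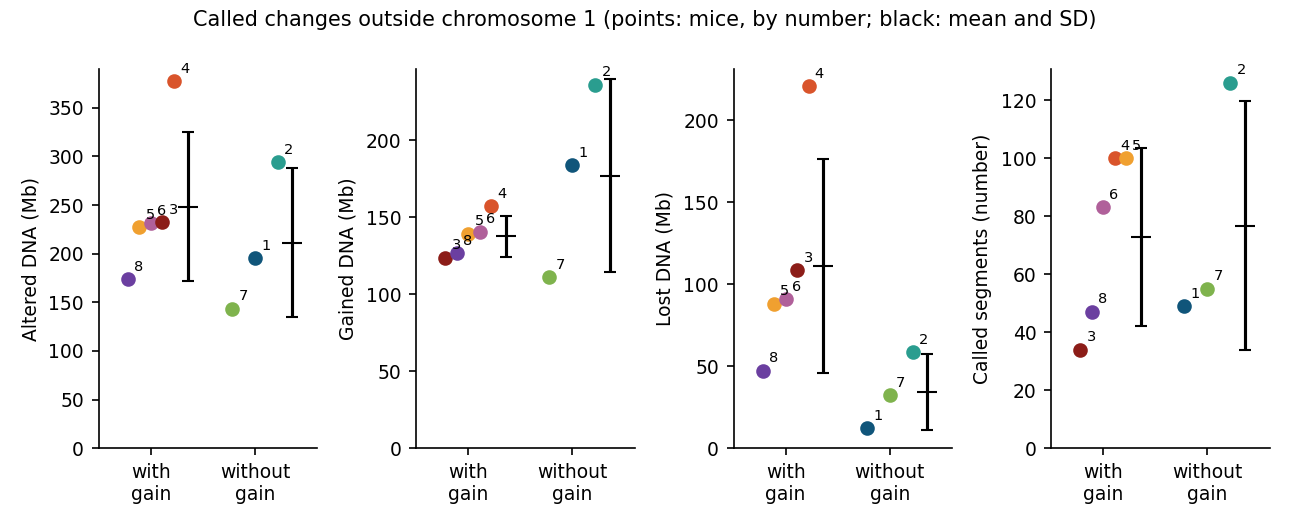
Called changes outside chromosome 1 in each lymphoma with and without the distal chromosome 1 gain: altered, gained and lost DNA in Mb and the number of called segments (y axes, from 0). Points are mice with their numbers, and black marks are mean and SD (n = 5 and 3). Lost DNA is the measure with the least overlap, where only mouse 8 (47.3 Mb) lies below mouse 2 (58.4 Mb), and the gained DNA of the 5 is narrowly spread around 137 Mb.

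Whole-chromosome medians were close between the sides. Of 18 autosomes outside chromosome 1, only chromosome 2 had an unadjusted exact permutation p under 0.05 (p = 0.0179, the smallest possible; adjusted 0.321). A single chromosome could not pass the adjustment over 18 even at that p. For chromosome 2 the values were small. Chromosome 2 medians were -0.00, -0.01, -0.02, -0.00 and -0.03 on the gain side and 0.02, 0.03 and 0.02 on the other, which did not overlap but differed by only -0.04. Centring on the mode gave p = 0.429. Chromosome 15, which carries Myc, was gained as a whole or in its distal part in 7 of 8 lymphomas. Its medians were 0.52, 0.54, 0.57, 0.51 and 0.15 in mice 3, 4, 5, 6 and 8 and 0.53, 0.42 and 0.47 in mice 1, 2 and 7 (exact permutation p = 0.964). Mouse 8 alone had 0% of its chromosome 15 probes called gained, at a median between 0 and those of the other 7. Whether part of its cells carried the gain was not tested. Chromosome 14 medians were -0.53, 0.01, -0.04, -0.68 and 0.15 on the gain side and 0.03, -0.03 and 0.23 on the other (p = 0.214, exact permutation).

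Co-occurring and exclusive changes were sought gene by gene from the calls. A run of at least 5 genes counted as co-occurring with the chromosome 1 gain where the share of arrays called was higher by 0.6 or more on the gain side, and as exclusive where it was higher by 0.6 or more on the other. Each run ended where the call of any of the 8 arrays changed. Co-occurring losses made up 8 regions with 165 of the 23100 genes outside chromosome 1, and exclusive gains 2 regions with 260 of them. The region around Akt1 on chromosome 12 entered both counts. Neighbouring regions can be pieces of 1 loss, so the number of regions is not a number of events. No co-occurring gain and no exclusive loss was found. All regions lay on chromosomes 2, 12 and 14. They were picked for their difference between the sides, so their Fisher exact p-values, 0.107 to 0.196, are descriptions. Over all genes outside chromosome 1, a Fisher exact unadjusted p under 0.05 was reached by 0 of 23100 genes (0%) for gain calls. For loss calls it was reached by 1 of them (0.00433%). The adjusted p was under 0.05 for 0 of 46200 tests (0%) over both kinds of call. With so few arrays, only a call found in all arrays of one side and in none of the other could pass unadjusted. A single gene could not pass the adjustment even with such a split, so nothing is read from the adjusted count.

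The largest exclusive gain was proximal chromosome 2, chr2:3039268-25713270, 22.7 Mb with 231 genes. It read 0.62 and 0.64 in lymphoma mice 1 and 2 and 0.01 in mouse 7. On the gain side all 5 lay between -0.05 and 0.01. So 2 of 3 lymphomas without the chromosome 1 gain had the block and 0 of 5 with it (Fisher exact p = 0.107). The gain in mouse 1 ran from the first probe of the chromosome over 23.5 Mb to within Notch1, and in mouse 2 over 37.4 Mb, past Notch1. Within scan batches 1 and 3 the sides differed by -0.66 and -0.65, and in batch 6, where neither mouse had the block, by 0.00.

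Named genes of this block followed it. Gata3, a transcription factor of the helper T-cell lineage, averaged 0.61 and 0.88 in mice 1 and 2, 0.29 in mouse 7, and 0.28, 0.29, 0.20, 0.24 and 0.12 in mice 3, 4, 5, 6 and 8 (difference -0.37 ± 0.12, SE). Dclre1c, the Artemis nuclease that opens hairpins during receptor gene assembly, averaged 0.56 and 0.89 in mice 1 and 2 and -0.05 to 0.21 in the other 6. Cdnf had limma's smallest adjusted p outside chromosome 1, 0.157. Its difference was -0.56 ± 0.11 (SE, n = 5 and 3), with 0.71, 0.74 and 0.40 against -0.10 to 0.24. Of the 10 named genes with the most negative non-overlapping differences, 7 lay in this block: Man1b1, Cacna1b, Cdnf, Dnajc1, Fam107b, Nebl and Taf3.

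Notch1 itself did not divide the lymphomas in this way. A core of 72.4 kb, chr2:26400799-26473212, which overlaps 2 of the 6 Notch1 probes, was called gained in 4 lymphomas, mice 1 and 2 on one side and mice 3 and 4 on the other. Its medians were 2.34, 0.80 and 0.17 in mice 1, 2 and 7 and 1.58, 0.75, 0.09, 0.00 and 0.38 in mice 3, 4, 5, 6 and 8. The difference was -0.54 (exact permutation p = 0.429), and without lymphoma mouse 1 it was 0.07. In mouse 3 the gain started at 25714935, and in mouse 4 it was the core alone. The block described above was cut where calls changed, so its end beside the start in mouse 3 follows from that cut. A break between segments fell inside Notch1 in mice 1 and 4.

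On chromosome 12 the sides differed in the 2.91 Mb between 107803661 and the Igh locus. This stretch, with Ppp2r5c and Akt1, was lost in all 5 gain-side lymphomas, at -0.75, -0.71, -0.79, -0.78 and -0.72. On the other side it read 0.05 in lymphoma mouse 1, -0.73 in mouse 2 and 0.81 in mouse 7. Mouse 2 therefore fell within the gain-side range, whereas mice 1 and 7 lay far above it. The loss of chr12:107799322-109477497 and of chr12:109701447-110778127 was called in 5 of 5 against 1 of 3 (Fisher exact p = 0.107). Within the batches the stretch differed by -0.77, -0.06 and -1.59, so batch 3, which pairs mouse 5 with mouse 2, showed no difference.

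Akt1, a growth and survival kinase, lies in the part that was exclusively gained on the other side, chr12:109920814-110778127, with 0.59 in mouse 1 and 1.3 in mouse 7. Its 4 probes averaged -0.73, -0.70, -0.74, -0.72 and -0.64 on the gain side and 0.69, -0.64 and 1.26 on the other. The difference was -1.14 ± 0.35 (SE; limma adjusted p = 0.930). Ppp2r5c, a regulatory subunit of protein phosphatase 2A, averaged -0.90 to -0.76 on the gain side and -0.10, -0.66 and 0.73 on the other, which did not overlap (difference -0.80, limma adjusted p = 0.986).

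The loss distal to Igh was common to both sides. The last 4.01 Mb of chromosome 12 read -0.90, -1.0, -0.98, -0.84 and -0.90 in mice 3, 4, 5, 6 and 8 and -0.37, -0.95 and -0.90 in mice 1, 2 and 7. All 8 were called lost, and the difference of -0.19 had an exact permutation p of 0.232. What distinguished mice 1 and 7 was a gain between a proximal and a terminal loss. In mouse 7 a gain of 3.16 Mb at 0.83 stood between losses of -0.81 and -0.88. Bcl11b, proximal to it, averaged -0.83 to -0.61 in 7 lymphomas and -0.14 in mouse 1.

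Further proximal on chromosome 12, a short stretch was lost in more gain-side lymphomas than others. The region chr12:98045498-98521957 was called lost in 4 of 5 gain-side lymphomas (-0.76, -0.81, -0.75 and -0.49 in mice 3, 5, 6 and 8, but 0.20 in mouse 4). It was not called lost in the other 3 (1.39, 0.12 and 0.13 in mice 1, 2 and 7; Fisher exact p = 0.143). Mouse 2 lost chromosome 12 from 98521898 on, over 19.3 Mb to the end at -0.85. The stretch was cut where calls changed, so its distal edge beside that start follows from the cut. Of the 14 no-lymphoma arrays, 1 was also called lost there, no-lymphoma mouse 7, which lacked the chromosome 1 gain. In mouse 1 the stretch lay in an amplified block of 17.4 Mb at 1.12.

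Distal chromosome 14 carried the other co-occurring losses, and they were not common to the whole gain side. From the distal edge of the Tcra/Tcrd locus to the chromosome end (70.1 Mb), the medians were -0.91, -0.06, -0.76, -0.88 and 0.03 in mice 3, 4, 5, 6 and 8. They were -0.04, -0.24 and 0.25 in mice 1, 2 and 7. Mice 3 and 6 had lost 100% of the probes and mouse 5 62.3%, while mouse 2 had lost 37.3%, mouse 4 9.25% and mice 1, 7 and 8 0%. The mean was -0.52 ± 0.46 (SD, n = 5) against -0.01 ± 0.24 (SD, n = 3), and the sides overlapped. Within the batches the difference was -0.45, -0.53 and -1.13.

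The shape of these chromosome 14 losses varied between the mice that had them. Mice 3 and 6 had 1 continuous loss of 70.2 Mb. Mouse 5 alternated 7 losses (43.0 Mb in all, at -0.99 to -0.88) with 3 gains (11.7 Mb, at 0.57 to 1.96). Mouse 2 had 2 losses of 21.4 Mb in all, both proximal to 83 Mb, and 0% of its probes were lost from 85003947 on. The most distal regions, chr14:93436647-96346929, chr14:112381089-114384618 and chr14:114680457-118371454, were called lost in mice 3, 5 and 6 and in none of mice 1, 2 and 7 (Fisher exact p = 0.196). Each was also called lost in 3 of the 14 no-lymphoma arrays.

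Around Klhl1 and Dach1 mouse 4 joined them only by a narrow margin. The region chr14:84869356-92514950 read -1.08, -0.26, -1.0, -0.98 and -0.04 in mice 3, 4, 5, 6 and 8 and -0.20, -0.22 and 0.12 in mice 1, 2 and 7. Mouse 4, just past the threshold of -0.25, counted as lost, and mice 1 and 2, just inside it, did not. Dach1, a transcriptional corepressor, averaged -1.06, -0.23, -1.0, -0.94 and -0.09 against -0.13, -0.18 and 0.15. In the 12 no-lymphoma arrays without the chromosome 1 gain the same region ran from -0.37 to 0.50. High values there were not shared widely. From 85003947 to the chromosome end, no-lymphoma mouse 1 read 0.49 and no-lymphoma mouse 3, the next highest, 0.11. The region around Klhl1 and Dach1 was called lost in 4 of the 14 no-lymphoma arrays. Among these, no-lymphoma mice 9 and 14 lacked the chromosome 1 gain and had lost 100% of the probes beyond Tcra/Tcrd. Rb1, the retinoblastoma tumour suppressor, was lost in mice 3 and 6 (-0.70 and -0.84) and read 0.09 in mouse 5, where it lay between a called loss and a called gain.

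**Figure D3:**
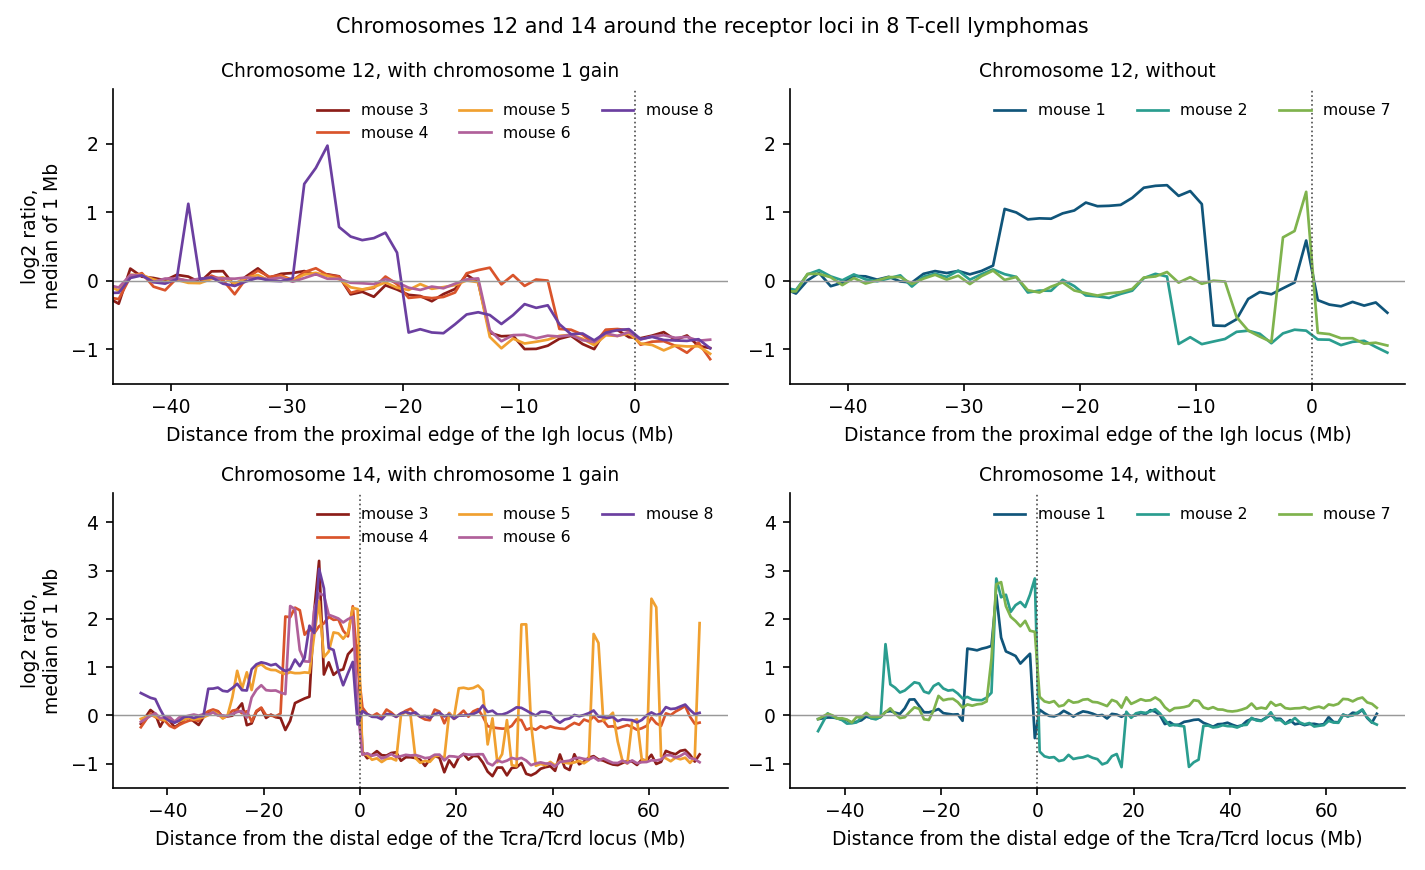
Log2 ratio (y axes, median of 1 Mb) along chromosome 12 against the distance from the proximal edge of the Igh locus (top) and along chromosome 14 against the distance from the distal edge of the Tcra/Tcrd locus (bottom), for lymphomas with (left) and without (right) the chromosome 1 gain. Lines are mice. On chromosome 12 the 5 on the left lie near -0.75 just before Igh, and mouse 7 on the right at 0.81. On chromosome 14 all 8 are high before the locus. Beyond it mice 3 and 6 stay low, and mouse 5 alternates between losses and gains.

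Regions recurrent in the lymphomas, found without regard to the sides, gave no difference that passed the test. Minimal regions called in the same direction in at least 4 of the 8 lymphomas numbered 9, and the exact permutation p was under 0.05 for 0 of them (lowest p 0.0893, adjusted 0.413, for chr14:84900299-93425618 at -0.57). The gain just proximal to Tcra/Tcrd, chr14:38791444-47055243, was present in all 8, at 1.16, 1.86, 1.66, 2.06 and 1.16 in mice 3, 4, 5, 6 and 8 and at 1.29, 2.37 and 2.07 in mice 1, 2 and 7 (difference -0.33, exact permutation p = 0.321). The chromosome 15 region around Myc read 0.53 to 0.59 in 7 lymphomas and 0.17 in mouse 8. Loss of chr12:104197561-105340390, proximal to Bcl11b, was called in all 8 (-0.85 to -0.68 against -0.76 to -0.45).

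**Figure D4:**
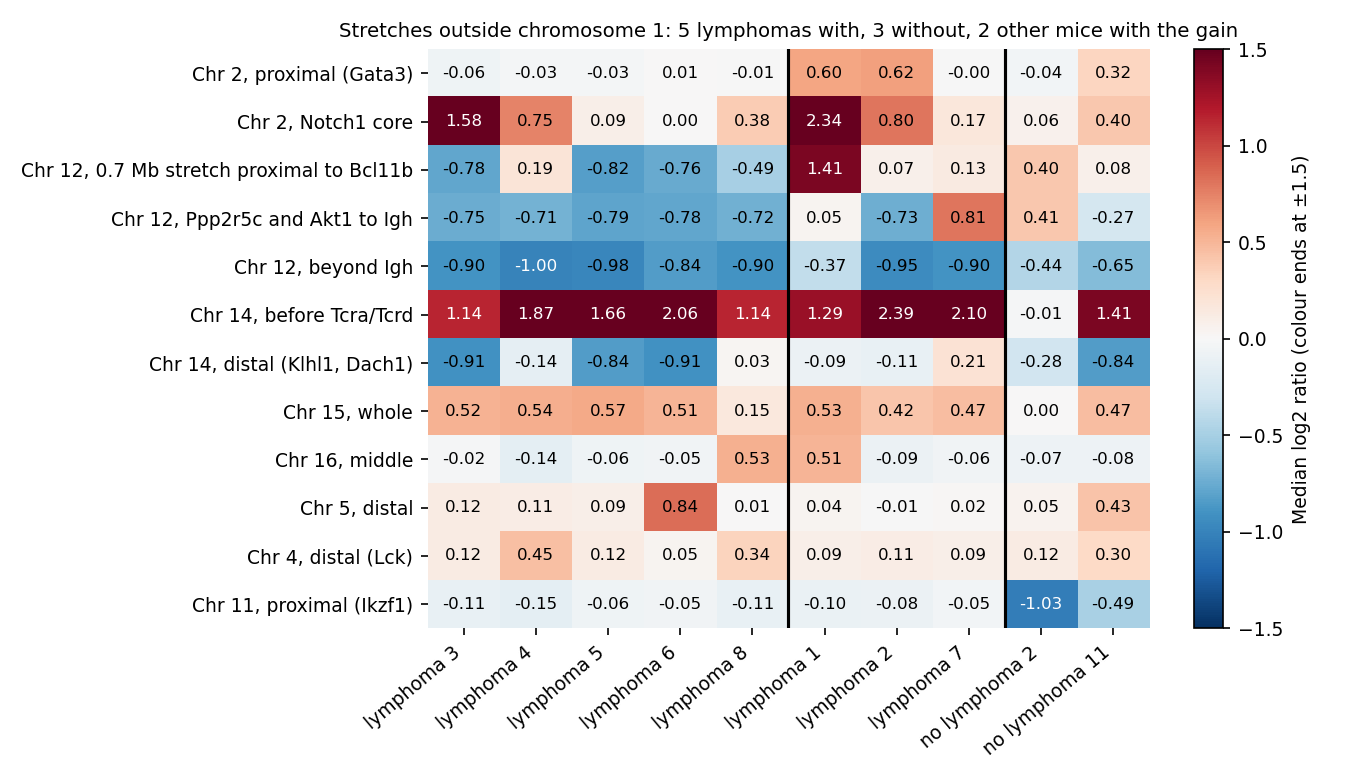
Median log2 ratio of 12 stretches outside chromosome 1 (y axis) in each of the 5 lymphomas with the distal chromosome 1 gain, the 3 without and the 2 no-lymphoma mice with it (x axis). Colour runs from loss (blue) to gain (red) and ends at ±1.5, and the value is printed in each cell. The proximal chromosome 2 stretch reads 0.60 and 0.62 in lymphoma mice 1 and 2 and -0.06 to 0.01 in all 5 with the gain. The chromosome 15 and pre-Tcra/Tcrd stretches are high on both sides.

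Gene by gene, limma called none of the 12106 genes outside chromosome 1 at an adjusted p under 0.05 (0%). An unadjusted p under 0.05 was reached by 216 genes (1.78%). Values of all 5 gain-side lymphomas lay above those of all 3 others for 70 genes (0.578%) and below for 77 (0.636%). The count of calls rested on single mice of the smaller side. Without lymphoma mouse 7, 69 genes passed, all on chromosome 2 and lower on the gain side, and without mouse 2, 7 genes passed, all on chromosome 12 and lower on the gain side. The Fisher count of 1 gene likewise became 236 without mouse 7 and 101 without mouse 2. Of the 236, 231 were gain calls on chromosome 2, and of the 101, 29 gain and 71 loss calls lay on chromosome 12. With 5 against 2 arrays every complete split of the calls passes unadjusted. In both cases the mouse left out was the one that broke the split there.

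The 10 named genes with the most positive non-overlapping differences lay on chromosomes 4, 5 and 7. Limk1, a kinase of the actin cytoskeleton, and Castor2, an arginine sensor, owed their place to mouse 6, with 1.26 and 0.80 in a chromosome 5 gain, and to mouse 7, with -0.47 and -0.40. Cyp3a25, Glt1d1 and Fam220a also had their highest value in mouse 6 (0.59 to 0.92). Pigv, a mannosyltransferase of GPI anchor synthesis, read 0.37, 0.52, 0.54, 0.13 and 0.55 in mice 3, 4, 5, 6 and 8 and -0.09, 0.01 and 0.11 in mice 1, 2 and 7 (limma adjusted p = 0.618). Zbtb17, Yars and Trim30d differed by 0.37, 0.33 and 0.34. Pigv, Yars and Trim30d varied more widely among the no-lymphoma arrays than among the lymphomas. In no-lymphoma mouse 2 they read 1.52, 1.58 and 2.26. Their lowest values in the no-lymphoma arrays without the chromosome 1 gain were -0.75, -0.57 and -0.72.

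Skint9 and Skint4, members of a clustered gene family needed for certain gamma-delta T cells, were low on the other side. Skint9 read -0.48, -0.89 and -0.34 in mice 1, 2 and 7 and -0.16 to 0.03 on the gain side (difference 0.53 ± 0.12, SE; limma adjusted p = 0.320). Skint4 was the gene with the Fisher p of 0.0179, lost in 3 of 3 and in 0 of 5, although its mean in mouse 5, -0.49, was as low as in mouse 1. Among no-lymphoma arrays Skint4 ran from -1.28 to 0.28 in 12 mice and read 4.65 in no-lymphoma mouse 2, a wider range than in the 8 lymphomas. Skint9 ran from -1.04 to 0.49 in the same 12 mice and read 4.33 in no-lymphoma mouse 2. Spsb1, the named gene with the most negative difference (-1.34), read 3.40 in mouse 2 alone.

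The gene lists, chosen for T-cell lymphoma, held 115 distinct genes, of which 105 were on the array, 98 outside chromosome 1 and 70 of these with at least 3 probes. None of the 70 passed limma's adjusted threshold, and 4 had an unadjusted p under 0.05: Gata3, Il7r, Akt1 and Dclre1c. Over all genes tested outside chromosome 1 that share was 216 of 12106 (1.78%). The median difference over the 70 was -0.04, beside -0.01 over all genes tested, and 18 of the 70 were positive, beside 5479 of 12106. By list, the counts with an unadjusted p under 0.05 were 0 of 14 for the Notch pathway, 1 of 14 for T-lineage transcription factors, 0 of 15 for tumour suppressors, 2 of 16 for growth signalling and oncogenes, 1 of 14 for DNA break repair and 0 of 2 for gamma-secretase. The median differences of these lists were -0.07, -0.06, -0.04, -0.04, -0.01 and -0.03.

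Il7r, the interleukin-7 receptor on proximal chromosome 15, had the only positive difference of the 4. It read 0.75, 0.79, 0.77, 0.56 and 0.32 in mice 3, 4, 5, 6 and 8 and 0.60, 0.20 and 0.04 in mice 1, 2 and 7 (difference 0.35 ± 0.15, SE; limma p = 0.0471, adjusted 1). The chromosome 15 gain began at 40640807 in mouse 2 and at 33240384 in mouse 7, distal to Il7r, and covered the whole chromosome in mouse 1.

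Segment breaks inside genes were counted last, and the genes named for them were chosen after their values were seen. Of 12080 genes outside chromosome 1, 294 (2.43%) had a break in at least 1 lymphoma. Cacna2d3, which encodes a calcium channel subunit and lies on chromosome 14, had breaks in lymphoma mice 3, 5 and 6, in 0 of the 3 lymphomas without the chromosome 1 gain and in 0 of 14 no-lymphoma arrays. In the opposite direction, Cntnap2, Otud7a and BC057135 had breaks in mice 2 and 7 and in none of the 5. Among the no-lymphoma arrays, Otud7a had a break in 2, BC057135 in 1 and Cntnap2 in 0. Cacna2d3 and Cntnap2 are long genes with 123 and 284 probes, and more probes leave more places for a break. Otud7a had 43 probes and BC057135 had 8. The share of all genes with such a split between the sides is not given here, so nothing is read from these patterns.

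Most of the remaining changes belonged to 1 or 2 mice and did not follow the sides. Cdkn2a, which encodes cell cycle inhibitors, was lost in lymphoma mouse 3 (-1.02) and gained in mouse 2 (0.48). Runx1, a transcription factor of blood development, read 1.91 in mouse 1 and 0.29 or less elsewhere. The middle of chromosome 16 was gained in mouse 1 (0.51) and mouse 8 (0.53), 1 on each side. Distal chromosome 4, with the T-cell kinase gene Lck, was gained in mice 4 and 8 (0.45 and 0.34) and read 0.05 to 0.12 in the other 6. Pik3cd, a lymphocyte phosphoinositide kinase, read 3.42 in mouse 2 and 1.49 in mouse 8. Distal chromosome 5 was gained in mouse 6 only (0.84), and a 13.7 Mb loss of chromosome 6 (-0.78) was found in mouse 7 only.

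Of the 14 no-lymphoma arrays, 2 met the chromosome 1 threshold and the other 12 read -0.02 to 0.05. No-lymphoma mouse 2 read 0.52 over 63.1 Mb of gain and no-lymphoma mouse 11 read 0.79 over 89.7 Mb. Mouse 11 read 1.41 before Tcra/Tcrd, where all 8 lymphomas were gained, and 0.47 on chromosome 15, where 7 lymphomas of both sides were. On distal chromosome 14 it read -0.84, a loss found in 3 of the 5 gain-side lymphomas. It also had 0.32 on proximal chromosome 2, the block that no gain-side lymphoma carried. No-lymphoma mouse 2 had a gain of 0.41 before Igh, where the 5 lymphomas had lost, and 0.00 on chromosome 15. On distal chromosome 14 it read -0.28, with 58.7% of the probes called lost. Beyond Igh, where all 8 lymphomas were called lost, it read -0.44.

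Both of these mice had lost proximal chromosome 11 (-1.03 and -0.49), which all 8 lymphomas kept at -0.15 to -0.05. Ikzf1, a lymphoid transcription factor there, averaged -0.77 in no-lymphoma mouse 2 and 0.04 in mouse 11, against 0.03 to 0.28 in the lymphomas. Altered DNA outside chromosome 1 came to 151.5 Mb in mouse 2 and 294 Mb in mouse 11. The array labelled no-lymphoma mouse 1 read 0.37 to 0.49 where others had losses on chromosomes 11, 12 and 14 and -0.45 before Tcra/Tcrd.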

How the data were processed

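The deposited scanner files hold intensity in 2 channels for each spot. Per the file headers, Feature Extraction 9.1.3.1 subtracted background and normalised the dyes to give the processed intensity (version 9.1 in the submitters' processing notes). The deposited log10 ratios are red over green, per the file headers, and equalled the deposited series value table. The genome build of the probe positions was not stated in those sources.

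From the deposited processed intensities, log2 ratios of red over green were computed at 238202 spots, averaged over 235402 probes and centred on the autosomal median (220065 probes), without loess or quantile normalization. Gene names were updated through RefSeq GRCm38.p6 (11692 by symbol, 3412 by synonym, 9679 kept, 86 left out), and probes were averaged per gene. Arrays were segmented by optimal partitioning (penalty multiplier 3, at least 5 probes, outlying probes limited to 4 noise SD from the running 7-probe median) in numpy 2.4.6 and numba 0.67.0 under Python 3.11.15, tested on simulated data. Means beyond 0.25 were called. The altered Mb and segment numbers do not count segments shared by 11 or more of the 22 arrays or lying in receptor loci. Described events had at least 2 Mb and 0.35 in size.

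Sides were compared with exact two-sided permutation tests, limma 3.58.1 in R 4.3.3 (genes with at least 3 probes) and Fisher exact tests (scipy 1.17.1), with Benjamini-Hochberg adjustment over all genes. Arrays are 1 mouse each, and their number limits the precision. Replicate numbers follow accession order and pair nothing. Named genes are the 10 largest differences in each direction among genes whose sides do not overlap, at most 2 per 5 Mb, plus list members with a result, of which some are not reported here; Skint4, Klhl1, Dach1, Cacna2d3, Cntnap2, Otud7a and BC057135 were chosen after their values were seen. The sides, lists and stretches were chosen with earlier results of these data known. Alternatives were centring, normexp (on the median signals, since the files used hold no mean signals), call thresholds, penalty, scan batch as a block and each mouse left out.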

Additional observations from a re-analysis of the deposited data

Results flagged for a closer look

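Within the gain side, 31 measures (DNA amounts, chromosome medians and recurrent regions) were searched for a mouse far from the other 4, by a rule that chance meets about 1 time in 20, and 7 met it. Lymphoma mouse 4 had 378 Mb altered (next 232 Mb), a chromosome 4 median of 0.13 (next -0.00) and a chromosome 19 median of -0.12 (next -0.03). Lymphoma mouse 8 had a chromosome 15 median of 0.15 (next 0.51) and 0.17 over the recurrent chromosome 15 region (next 0.53). It also had a chromosome 10 median of 0.10 (next -0.01) and a chromosome 16 median of 0.12 (next -0.00). Mouse 8 also had the lowest chromosome 1 window median of its side, 0.46, and was the only lymphoma of its scan batch. The part of the batch in these values was not tested.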

How the results depend on the processing

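Over all results and alternatives, 260 values kept direction and side of the threshold, 3 lost the threshold, 1 crossed it, 18 moved and 11 turned sign; the causes were not tested. The difference in altered DNA became -84.0 Mb and that in lost DNA -67.2 Mb with calls at 0.15. The difference in segments became 7.80 with scan batch as a block and 4.83 without the noisiest array, and ran from -20.1 to 20.9 with each mouse left out. Altered DNA ran from 3.64 to 80.5 Mb (3.64 without mouse 7 and 4.81 without mouse 4). Gained DNA ran from -70.9 to -8.45 Mb (exact permutation p = 0.0476 without mouse 7). Chromosomes with an unadjusted p under 0.05 numbered 0 instead of 1 when centred on the mode, with scan batch as a block and by chromosome means, and 1 to 2 with each mouse left out. Genes called by limma ran from 0 to 69. Genes with a Fisher exact p under 0.05 numbered 0 with normexp, scan batch as a block, or calls at 0.15 or 0.40, 2 with the penalty doubled, and 1 to 236 with each mouse left out. The chromosome 15 region became 0.0556 with normexp and 0.00538 with scan batch as a block, and ran from -0.0972 to 0.00732 with each mouse left out (0.00732 without mouse 8). The Notch1 core ran from -1.01 to 0.0732 (without mouse 1). No paired analysis was possible because the labels give no replicate numbers that link mice. With 12 arrangements within batches, no blocked permutation or Fisher p could fall under 0.05. The counts of 0 chromosomes and 0 Fisher genes with scan batch as a block were therefore fixed in advance. Signal near background limits the depth of large losses.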
